A study of Arabidopsis thaliana with 6 samples.

Results

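The aquaporin family of Arabidopsis thaliana was followed in the messenger RNA of whole Col-0 seedlings. The members were 35 loci taken by locus tag, out of 33518 genes in the larger of the deposited tables. They comprise 5 PIP1, 8 PIP2, 10 TIP, 9 NIP and 3 SIP genes. Names are written with a hyphen, as protein databases write them, so that PIP1-2 is the gene elsewhere written PIP1;2. All seedlings were 5 days old and had grown on half-strength MS medium in constant light. The PRE1-Ox/IBH1-Ox line carried 35S:IBH1-myc and 35S:PRE1-YFP, the IBH1-Ox line carried 35S:IBH1-myc alone, and WT carried no transgene, with 2 libraries in each of the 3 groups. The 35S promoter drives expression in most tissues, and the IBH1 transgene was present in both overexpressing lines. The labels do not say how many transgenic events each line represents. They also do not tell whether the libraries of a group came from different cultures, so the spread behind each p-value may be technical.

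Aquaporins are membrane channels that let water, and for some members small neutral solutes, cross membranes. PIP proteins sit mainly in the plasma membrane and TIP proteins in the vacuolar membrane, and both are abundant where cells take up water and expand. NIP proteins carry solutes such as boric acid and arsenite, and SIP proteins reside in the endoplasmic reticulum. IBH1 is a helix-loop-helix protein that restrains cell elongation by binding bHLH activators, while the small helix-loop-helix protein PRE1 binds IBH1 and promotes elongation. The comparison of PRE1-Ox/IBH1-Ox with IBH1-Ox asks what adding PRE1 does to seedlings that overexpress IBH1, and that of IBH1-Ox with WT asks what IBH1 does.

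The deposited values were group means of normalized reads, and whole reads per library were worked back from them. Libraries are therefore called the deeper and the shallower of their group, in that order below, with no replicate number. Reads over genes came to 10111138 and 8491676 in the PRE1-Ox/IBH1-Ox libraries and to 16094649 and 14087377 in the IBH1-Ox libraries. The WT total is unknown, because the table with WT listed only genes that the authors had called. The transgenes matched the labels. PRE1 had 8465 and 8344 normalized reads in PRE1-Ox/IBH1-Ox, against 125 and 135 in IBH1-Ox. IBH1 had 11790 and 12997 normalized reads in IBH1-Ox, against 179 and 138 in WT. IBH1 itself was not level between the overexpressing lines, with 16541 and 16523 normalized reads in PRE1-Ox/IBH1-Ox, against 10551 and 11629 in IBH1-Ox.

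With PRE1 added to IBH1-overexpressing seedlings, transcripts of 7 plasma membrane and 3 vacuolar aquaporins were higher, while TIP1-2 and PIP1-1, also abundant, were not among them. By the authors' deposited table, 10 of the 33 members with a p-value were higher in PRE1-Ox/IBH1-Ox than in IBH1-Ox at an adjusted p below 0.05, 2 were lower and 21 were not called. The same rule called 12.7% of all tested genes higher and 9.78% lower, and an unadjusted p below 0.05 held for 16.6% higher and 14.2% lower. The 10 higher members were PIP1-2, PIP1-3, PIP1-4, PIP1-5, PIP2-1, PIP2-6, PIP2-7, TIP1-1, TIP2-1 and TIP4-1, and the 2 lower were TIP2-3 and NIP1-1. By level per kb in IBH1-Ox, the 10 higher members ran from percentile 82.6 (TIP4-1) to 99.7 (PIP1-2) of genes with reads there. A small fold passes more readily in abundant genes. The shares above cover genes of all levels, and shares over genes of similar level were not computed. The median log2 fold change over the tested members was 0.13, beside -0.01 over all tested genes, whose quartiles were -0.27 and 0.27. With limma-voom on the recovered reads, 14 members were higher and 6 lower, where that fit called 20.8% of 19993 genes higher and 17.4% lower. It added PIP2-2, TIP1-2, TIP3-1 and SIP1-2 to the higher members, and PIP1-1, PIP2-4, NIP5-1 and NIP6-1 to the lower ones. Taking library totals as library sizes gave 12 higher and 8 lower members, beside 17.8% and 21.1% of genes, and dropping the filter on low counts gave 14 and 6, beside 17.4% and 14.4%. The share of member calls that were higher was 83.3% in the authors' test, 70.0% with limma-voom and 60.0% with library totals, beside 56.5%, 54.5% and 45.7% over all genes. In whole seedlings, fewer cells of a type and less RNA per cell cannot be told apart, and this holds for every value here.

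**Figure D1:**
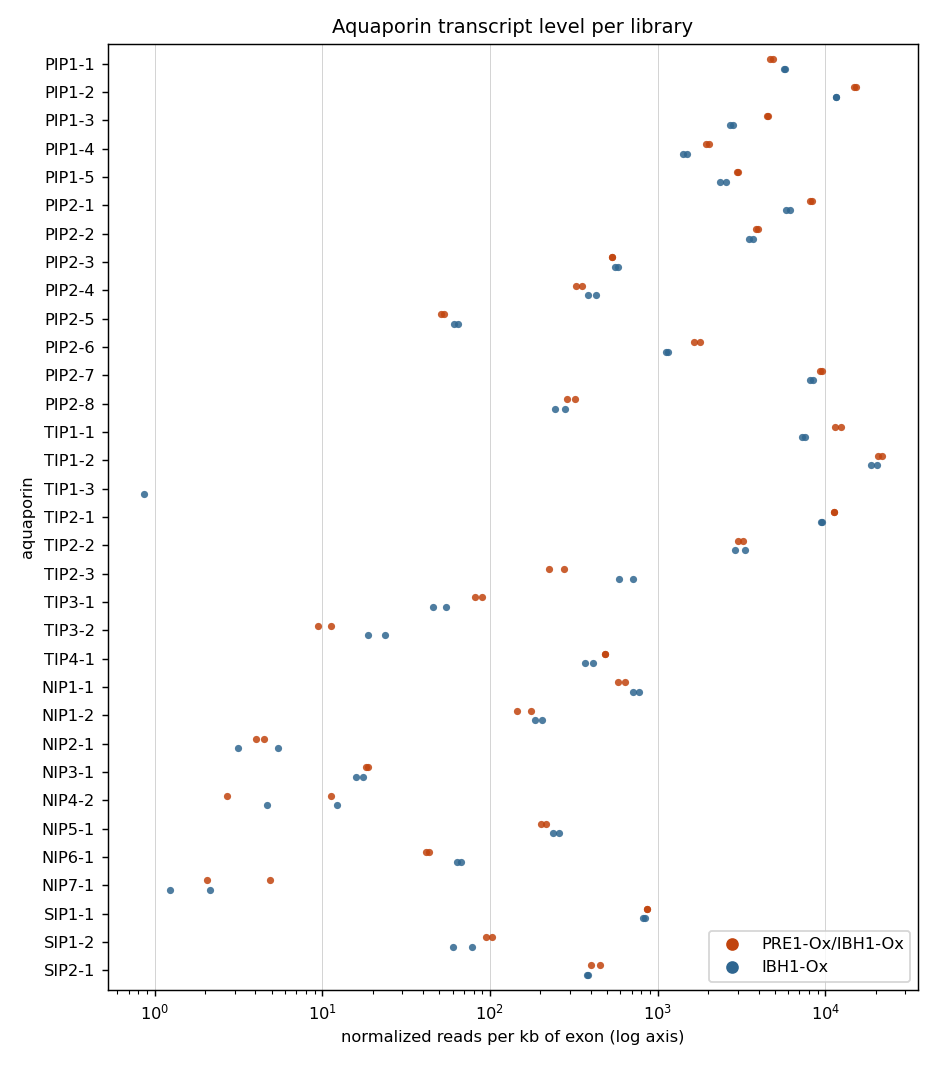
Normalized reads per kb of exon on a log axis, 1 point per library, for the 33 aquaporins with at least 1 read, in PRE1-Ox/IBH1-Ox (orange, upper point pair) and IBH1-Ox (blue, lower point pair). Library values of 0 are not drawn, which leaves TIP1-3 with a single point. TIP1-2 stands at the high end and NIP7-1 near the low end, and the point pairs of PIP1-3, TIP1-1 and TIP2-3 stand well apart.

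Levels per kb of exon, which allow genes to be compared with each other, differed widely within the family. The highest was TIP1-2 (AT3G26520), a vacuolar water channel, at 21209 normalized reads per kb in PRE1-Ox/IBH1-Ox and 19558 in IBH1-Ox (group means). PIP1-2 (AT2G45960) came next in both lines, at 15105 in PRE1-Ox/IBH1-Ox and 11604 in IBH1-Ox. TIP1-1 (AT2G36830), the gamma-TIP of the vacuolar membrane of growing cells, ranked 3 in the family in PRE1-Ox/IBH1-Ox with 11974, and 5 in IBH1-Ox with 7389 normalized reads per kb. TIP2-3 (AT5G47450) ranked lower in PRE1-Ox/IBH1-Ox. It stood at 21 in PRE1-Ox/IBH1-Ox with 250 normalized reads per kb, against 16 in IBH1-Ox with 651. At the low end, TIP5-1 (AT3G47440) and NIP4-1 (AT5G37810) had no read in any of these 4 libraries and were not tested, and TIP1-3 (AT4G01470) had 1 read in all. TIP1-3, TIP5-1, NIP4-1 and NIP4-2 (AT5G37820) are known from pollen, and the pollen marker VGD1 was at 0 in all 4 libraries. NIP4-2 was not at 0, with 2 and 7 reads in PRE1-Ox/IBH1-Ox and 15 and 5 in IBH1-Ox.

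Among the PIP1 genes, 4 of 5 rose in PRE1-Ox/IBH1-Ox and 0 fell by the authors' DESeq test, with a median log2 fold change of 0.38. At an unadjusted p below 0.05 that test had 1 lower PIP1 gene, as had limma-voom, and this was PIP1-1 (AT3G61430). PIP1 proteins form mixed tetramers with PIP2 proteins, which they need to reach the plasma membrane. PIP1-3 (AT1G01620) had 6956 and 7058 normalized reads in PRE1-Ox/IBH1-Ox, against 4356 and 4197 in IBH1-Ox. Every PRE1-Ox/IBH1-Ox library lay far above both IBH1-Ox libraries. Its log2 fold change was 0.71 in the authors' deposited table (adjusted p 1.82e-25), and limma-voom gave 0.71 ± 0.0442 (SE). PIP1-2, a water and carbon dioxide channel of roots and leaves, had 24520 and 23727 normalized reads in PRE1-Ox/IBH1-Ox, against 18425 and 18637 in IBH1-Ox. The log2 fold change of this most abundant PIP was 0.38 in the authors' deposited table (adjusted p 6.3e-11), with an SE of 0.0335 from limma-voom. PIP1-4 (AT4G00430) had 4025 and 3901 normalized reads in PRE1-Ox/IBH1-Ox, against 2828 and 2981 in IBH1-Ox. Its groups did not overlap, at a log2 fold change of 0.45 in the authors' deposited table (adjusted p 5.86e-11). PIP1-5 (AT4G23400) had 3938 and 3981 normalized reads in PRE1-Ox/IBH1-Ox, against 3390 and 3123 in IBH1-Ox. This smaller difference, a log2 fold change of 0.28 in the authors' deposited table, also passed (adjusted p 0.000122).

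PIP1-1 stood apart from the other PIP1 genes. It had 7563 and 7289 normalized reads in PRE1-Ox/IBH1-Ox, against 8799 and 9012 in IBH1-Ox. Both PRE1-Ox/IBH1-Ox libraries were the lower ones, as for 32.2% of 24422 genes. The adjusted p of PIP1-1 in the authors' deposited table was 0.0539, just short of the threshold. With limma-voom the log2 fold change of PIP1-1 was -0.26 ± 0.0413 (SE) with an adjusted p of 2.29e-05, so the call depends on the test.

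For PIP1-2, PIP1-3 and TIP2-3 the 250 bases upstream of the annotated gene start are shown, since IBH1 and PRE1 act through bHLH factors, a class that binds the hexamer CANNTG and often its form CACGTG. The windows are from RefSeq assembly TAIR10.1 and run 5′ to 3′ on the strand of the gene, with every CANNTG in capitals. PIP1-2 and PIP1-3 are the most abundant and the most raised PIP1 genes, and TIP2-3 is the member that fell most. They lie at chr2:18909831-18910080 (plus strand), chr1:227544-227793 (minus strand) and chr5:19249623-19249872 (minus strand).
PIP1-2: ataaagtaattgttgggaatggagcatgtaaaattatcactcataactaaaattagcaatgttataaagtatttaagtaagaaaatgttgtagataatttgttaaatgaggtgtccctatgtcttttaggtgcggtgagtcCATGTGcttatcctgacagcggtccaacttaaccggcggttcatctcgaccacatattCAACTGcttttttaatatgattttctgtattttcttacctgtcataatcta
PIP1-3: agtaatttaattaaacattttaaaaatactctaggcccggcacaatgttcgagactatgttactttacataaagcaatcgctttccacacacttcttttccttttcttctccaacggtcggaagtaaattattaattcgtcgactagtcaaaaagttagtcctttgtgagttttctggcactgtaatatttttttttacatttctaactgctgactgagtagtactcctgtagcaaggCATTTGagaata
TIP2-3: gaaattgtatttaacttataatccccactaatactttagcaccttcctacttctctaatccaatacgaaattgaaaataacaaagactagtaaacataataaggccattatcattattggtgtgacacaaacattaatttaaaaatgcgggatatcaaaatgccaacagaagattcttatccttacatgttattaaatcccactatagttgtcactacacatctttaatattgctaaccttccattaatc
PIP1-2 held 2 CANNTG hexamers, PIP1-3 held 1 and TIP2-3 held 0. Both motifs equal their own reverse complement in form, so a search of one strand covers both, and every CACGTG is also a match to CANNTG. The hexamer CACGTG was in 0 of the 35 aquaporin windows, beside 6.49% of the 27443 windows of that length upstream of nuclear protein-coding genes. CANNTG was in 19 of the 35, or 54.3%, beside 55.3% of all windows. A match is a description of these letters and marks no binding site.

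Among the PIP2 genes, 3 of 8 rose and 0 fell by the authors' DESeq test, with a median log2 fold change of 0.15. An unadjusted p below 0.05 gave 0 lower PIP2 genes too, while limma-voom gave 1, PIP2-4 (AT5G60660). PIP2-6 (AT2G39010), known from leaf veins, had 3872 and 3540 normalized reads in PRE1-Ox/IBH1-Ox, against 2422 and 2478 in IBH1-Ox. Its log2 fold change was the largest of the PIP2 genes, 0.60 in the authors' deposited table (adjusted p 1.08e-18), with an SE of 0.0527 from limma-voom. PIP2-1 (AT3G53420), a major water channel of the plasma membrane whose gating depends on phosphorylation, had 13051 and 12677 normalized reads in PRE1-Ox/IBH1-Ox, against 9135 and 9760 in IBH1-Ox. The groups were clear of each other, at a log2 fold change of 0.45 in the authors' deposited table (adjusted p 5.41e-14). PIP2-7 (AT4G35100) had the highest level per kb of the PIP2 genes, with 15348 and 14883 normalized reads in PRE1-Ox/IBH1-Ox, against 13012 and 13557 in IBH1-Ox. This was the smallest of the 10 called increases, a log2 fold change of 0.19 in the authors' deposited table (adjusted p 0.00425). Without the deeper PRE1-Ox/IBH1-Ox library, limma-voom gave it 0.16 with an adjusted p of 0.11.

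The other 5 PIP2 genes were not called. PIP2-4, which is mainly a root gene, had 513 and 473 normalized reads in PRE1-Ox/IBH1-Ox, against 559 and 622 in IBH1-Ox (adjusted p 0.359 in the authors' deposited table). PIP2-5 (AT3G54820) and PIP2-8 (AT2G16850) were below 500 normalized reads in every library, with log2 fold changes of -0.26 and 0.21 in the authors' deposited table. PIP2-2 (AT2G37170) had 5347 and 5193 normalized reads in PRE1-Ox/IBH1-Ox, against 4715 and 5005 in IBH1-Ox (adjusted p 0.552 in the authors' deposited table). PIP2-3 (AT2G37180) had 649 and 652 normalized reads in PRE1-Ox/IBH1-Ox, against 710 and 681 in IBH1-Ox (adjusted p 0.617 in the authors' deposited table).

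PIP2-2 and PIP2-3 are close copies that lie beside each other at chr2:15613368-15615022 (minus strand) and chr2:15617635-15619155 (plus strand) in TAIR10.1. Their coding sequences, each of 858 bases, are 94.8% identical, with 45 differing bases and a longest identical run of 242. A stretch rich in differences, coding bases 403 to 492, is shown because it lets reads of the copies be told apart, with the 12 differing bases in capitals.
PIP2-2: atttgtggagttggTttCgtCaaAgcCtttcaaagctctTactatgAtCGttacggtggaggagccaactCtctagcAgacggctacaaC
PIP2-3: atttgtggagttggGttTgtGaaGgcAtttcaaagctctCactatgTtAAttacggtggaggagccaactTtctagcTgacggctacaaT
Of the exonic 50-base words of PIP2-2 and PIP2-3, 14.7% and 16.5% occur elsewhere in the genome. The same share was 0 for 29 members, and ranged from 3.12% to 10.4% for NIP2-1 (AT2G34390), NIP3-1 (AT1G31885), NIP4-1 and NIP4-2. The read length is not given in the sources used here, so the values of PIP2-2 and PIP2-3 are uncertain to the extent that reads fell in shared stretches.

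**Figure D2:**
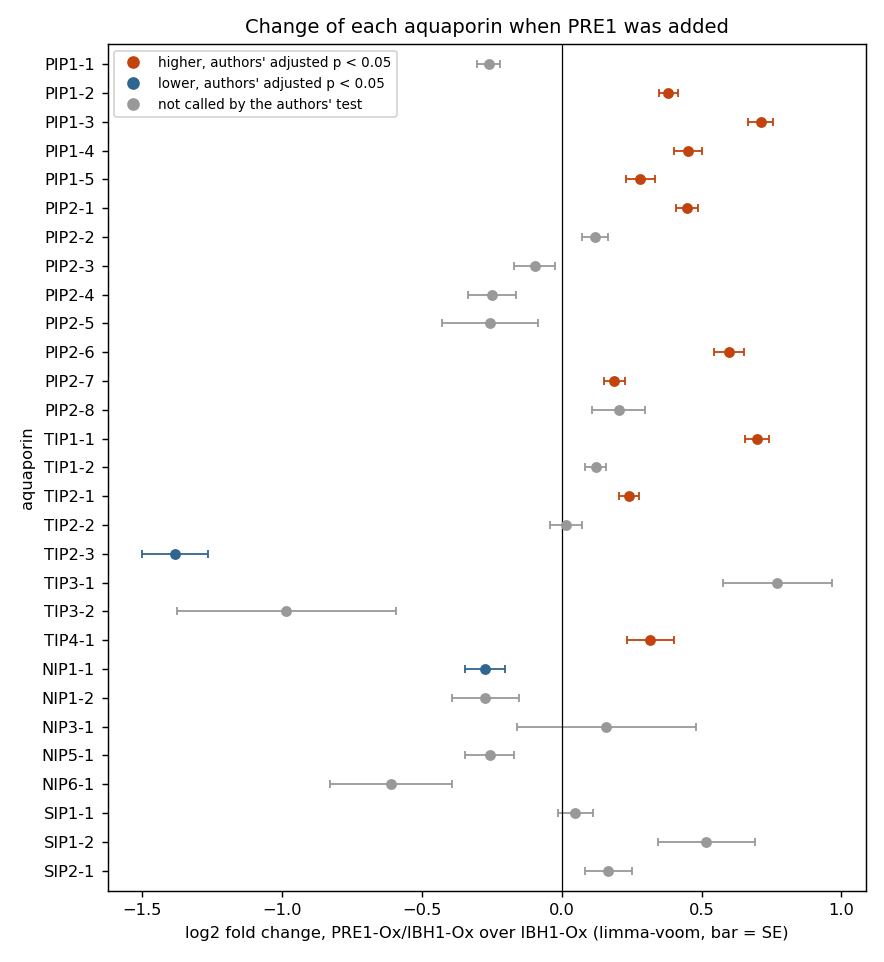
Log2 fold change of PRE1-Ox/IBH1-Ox over IBH1-Ox from limma-voom on recovered reads, with the SE as bars, for the 29 aquaporins with a mean of at least 10 normalized reads. Color marks the call of the authors' test: 10 higher (orange), 2 lower (blue), and the others grey. PIP1-3 and TIP1-1 are the largest of the called increases, and TIP2-3 the largest decrease.

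Among the TIP genes, 3 of the 9 tested rose and 1 fell by the authors' DESeq test, with a median log2 fold change of 0.18. An unadjusted p below 0.05 gave 4 higher and 1 lower, and limma-voom gave 5 and 1. TIP1-1 (chr2:15445294-15446621, plus strand) had 15398 and 14224 normalized reads in PRE1-Ox/IBH1-Ox, against 8932 and 9348 in IBH1-Ox. The groups were far apart, with a log2 fold change of 0.70 in the authors' deposited table (adjusted p 4.64e-13) and an SE of 0.0421 from limma-voom. TIP1-2, its close relative and the most abundant member, had 27975 and 26745 normalized reads in PRE1-Ox/IBH1-Ox, against 24195 and 26264 in IBH1-Ox. Here the nearest libraries of the groups almost touched, and the adjusted p in the authors' deposited table was 0.358, where limma-voom gave a log2 fold change of 0.12 ± 0.0376 (SE) and an adjusted p of 0.0138. TIP2-1 (AT3G16240), the delta-TIP, which carries water and ammonia, had 13394 and 13383 normalized reads in PRE1-Ox/IBH1-Ox, against 11242 and 11436 in IBH1-Ox. Its log2 fold change was 0.24 in the authors' deposited table (adjusted p 0.00119). TIP4-1 (AT2G25810), a root TIP that also carries urea, had 571 and 571 normalized reads in PRE1-Ox/IBH1-Ox, against 435 and 487 in IBH1-Ox, and its log2 fold change was 0.31 in the authors' deposited table (adjusted p 0.0294).

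TIP2-3 (chr5:19248249-19249622, minus strand), known for ammonia transport, was the one TIP gene that fell. It had 262 and 323 normalized reads in PRE1-Ox/IBH1-Ox, against 686 and 837 in IBH1-Ox. Both PRE1-Ox/IBH1-Ox libraries were below the lowest IBH1-Ox library by more than the libraries of either group differed. The log2 fold change was -1.38 in the authors' deposited table (adjusted p 8.66e-07), and -1.38 ± 0.117 (SE) from limma-voom, the largest decrease among the called members. TIP2-2 (AT4G17340), of the same subgroup, had 4348 and 4092 normalized reads in PRE1-Ox/IBH1-Ox, against 3919 and 4473 in IBH1-Ox. Its groups overlapped, and its log2 fold change was 0.01 with an adjusted p of 1 in the authors' deposited table.

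TIP3-1 (AT1G73190), also called alpha-TIP, and TIP3-2 (AT1G17810), also called beta-TIP, are channels of the protein storage vacuoles of seeds, and both were low. TIP3-1 had 106 and 95.8 normalized reads in PRE1-Ox/IBH1-Ox, against 64.2 and 54.0 in IBH1-Ox (adjusted p 0.0665 in the authors' deposited table). TIP3-2 had 11.0 and 13.1 normalized reads in PRE1-Ox/IBH1-Ox, against 27.8 and 22.0 in IBH1-Ox (adjusted p 0.29 in the authors' deposited table). Neither passed the threshold in the authors' test, while limma-voom gave TIP3-1 a log2 fold change of 0.77 ± 0.195 (SE) with an adjusted p of 0.0031, and its adjusted p under the other limma-voom settings ranged from 0.0022 to 0.0449. Of 7 mature seed markers, 1 was higher (OLEO2, an oil body protein, log2 fold change 1.37 in the authors' deposited table) and 0 were lower, as at an unadjusted p below 0.05, while limma-voom gave 2 higher and 2 lower. The summed level of the 7 was 890 and 858 normalized reads in PRE1-Ox/IBH1-Ox, against 2070 and 1014 in IBH1-Ox. None of the 7 was at 0. Over all genes the authors' test called 12.7% higher and 9.78% lower, and limma-voom 20.8% and 17.4%. Among the 7 seed markers, the normalized reads of the IBH1-Ox libraries differed most in the storage protein gene CRC. It had 91.5 and 67.6 normalized reads in PRE1-Ox/IBH1-Ox, against 875 and 336 in IBH1-Ox. The part of these seed transcripts in the TIP3 values was not tested.

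Both TIP3 genes carry, shortly upstream of the gene start, the hexamer CATGCA that forms the core of the RY element of seed genes. The 40-base stretches around it are shown as the sequence that these seed members share, from TAIR10.1, plus strand, at chr1:27521808-27521847 and chr1:6129882-6129921, with CATGCA as read on that strand in capitals.
TIP3-1: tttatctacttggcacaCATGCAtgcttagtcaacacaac
TIP3-2: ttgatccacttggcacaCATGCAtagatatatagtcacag
CATGCA was searched on both strands, and here it overlaps a CANNTG hexamer. It was in 10 of the 35 aquaporin windows of 250 bases, or 28.6%, beside 8.43% of all windows. Windows of PIP and NIP genes and of TIP1-2 were among them, so the hexamer was not particular to the TIP3 genes.

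Among the NIP genes, 0 of the 8 tested rose and 1 fell by the authors' DESeq test, and the median log2 fold change was -0.27. At an unadjusted p below 0.05 the counts were 0 and 3, and limma-voom also gave 0 higher and 3 lower. NIP1-1 (AT4G19030), a channel known to let arsenite into roots, had 930 and 847 normalized reads in PRE1-Ox/IBH1-Ox, against 1124 and 1031 in IBH1-Ox. It was the NIP with the highest level, and its log2 fold change was -0.28 in the authors' deposited table (adjusted p 0.0290). Without the shallower PRE1-Ox/IBH1-Ox library, limma-voom gave NIP1-1 -0.21 with an adjusted p of 0.112. NIP5-1 (AT4G10380), the boric acid channel of root uptake, had 437 and 468 normalized reads in PRE1-Ox/IBH1-Ox, against 564 and 514 in IBH1-Ox. NIP6-1 (AT1G80760), which carries boric acid to young leaves, had 50.5 and 52.6 normalized reads in PRE1-Ox/IBH1-Ox, against 77.6 and 81.5 in IBH1-Ox. Both PRE1-Ox/IBH1-Ox libraries were the lower ones for each of the 2 boron channels, as they were for 32.2% of 24422 genes. The adjusted p-values of NIP5-1 and NIP6-1 in the authors' deposited table were 0.085 and 0.0905, so neither was called. NIP1-2 (AT4G18910) had 254 and 208 normalized reads in PRE1-Ox/IBH1-Ox, against 268 and 296 in IBH1-Ox (adjusted p 0.23 in the authors' deposited table). NIP2-1, NIP3-1, NIP4-2 and NIP7-1 (AT3G06100) stayed under 30 normalized reads in every library and were not called.

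Of the 3 SIP genes, 0 were called by the authors' DESeq test, and their median log2 fold change was 0.16. At an unadjusted p below 0.05, and likewise with limma-voom, 1 was higher and 0 were lower, the higher one being SIP1-2 (AT5G18290). SIP1-1 (AT3G04090) had the highest level of them, with 1111 and 1114 normalized reads in PRE1-Ox/IBH1-Ox, against 1088 and 1063 in IBH1-Ox. SIP1-2 had 134 and 122 normalized reads in PRE1-Ox/IBH1-Ox, against 102 and 78.2 in IBH1-Ox (adjusted p 0.0709 in the authors' deposited table). SIP2-1 (AT3G56950) had 579 and 518 normalized reads in PRE1-Ox/IBH1-Ox, against 488 and 493 in IBH1-Ox (adjusted p 0.32 in the authors' deposited table). In all 3, both PRE1-Ox/IBH1-Ox libraries were the higher ones. Over the family, all PRE1-Ox/IBH1-Ox libraries were above all IBH1-Ox libraries for 18 of the 33 tested members and below them for 10, and the groups overlapped for 5. Over all genes such separation was common, at 30.1% higher and 32.2% lower of 24422 genes. TIP2-1, TIP3-1, TIP3-2, TIP5-1, NIP2-1, NIP6-1, SIP1-2 and SIP2-1 overlap genes of the opposite strand in the annotation, and whether counting used strand is not given in the sources used here.

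Summed over members, the aquaporin level per kb was higher in PRE1-Ox/IBH1-Ox for the PIP and TIP subfamilies and lower for the NIP genes. The whole family came to 106483 and 102886 normalized reads per kb in PRE1-Ox/IBH1-Ox, against 85826 and 89396 in IBH1-Ox, a ratio of 1.19. Aquaporins made up 0.952% and 0.920% of gene reads in PRE1-Ox/IBH1-Ox, against 0.792% and 0.819% in IBH1-Ox. The PIP1 genes summed to 29684 and 29047 normalized reads per kb in PRE1-Ox/IBH1-Ox, against 23972 and 24015 in IBH1-Ox, a ratio of 1.22. The ratios of the other sums were 1.20 for PIP2, 1.19 for TIP, 0.823 for NIP and 1.08 for SIP. The NIP and SIP sums were far smaller, with 1088 and 1025 normalized reads per kb for NIP in PRE1-Ox/IBH1-Ox, against 1319 and 1247 in IBH1-Ox. These sums are descriptions with no test, and a few abundant members dominate them.

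**Figure D3:**
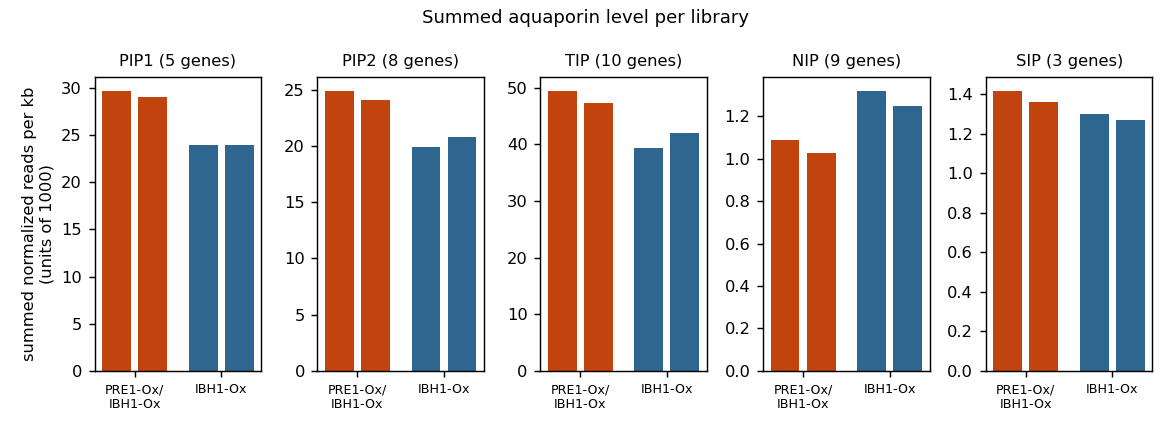
Summed normalized reads per kb of exon (axis in units of 1000) for each aquaporin subfamily, 1 bar per library, with PRE1-Ox/IBH1-Ox (orange) left of IBH1-Ox (blue). Each panel has its own axis from 0. The PIP1, PIP2 and TIP bars of PRE1-Ox/IBH1-Ox are the taller ones and the NIP bars are the shorter ones.

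The comparison of IBH1-Ox with WT can be read only for genes that the authors listed, which have a fold of 1.5 or more besides an adjusted p below 0.05. By the authors' deposited table, 6 of the 35 aquaporins were listed, 4 of them higher in IBH1-Ox and 2 lower. The listed genes amounted to 3.26% higher and 3.07% lower of the genes with a p-value in the other table. The other 29 members are not listed, which says nothing of how they changed. All of the 4 higher ones were TIP genes. This table was normalized separately from the other, and both use the same IBH1-Ox libraries, so the values below are set side by side with no test across tables.

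PIP2-6 had 2706 and 2769 normalized reads in IBH1-Ox, against 4511 and 4429 in WT. It fell in IBH1-Ox, with a log2 fold change of -0.71 in the authors' deposited table (adjusted p 7.08e-25), and rose in PRE1-Ox/IBH1-Ox relative to IBH1-Ox by 0.60, as given above. TIP2-3 had 766 and 935 normalized reads in IBH1-Ox, against 479 and 535 in WT. It rose in IBH1-Ox by a log2 fold change of 0.75 in the authors' deposited table (adjusted p 0.0159), where its change in PRE1-Ox/IBH1-Ox relative to IBH1-Ox was -1.38.

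TIP2-2 had 4379 and 4999 normalized reads in IBH1-Ox, against 2491 and 2385 in WT. It rose in IBH1-Ox by a log2 fold change of 0.94 in the authors' deposited table (adjusted p 0.00056), and its level in PRE1-Ox/IBH1-Ox was not called different from IBH1-Ox. TIP4-1 had 486 and 544 normalized reads in IBH1-Ox, against 340 and 325 in WT. Its log2 fold change of 0.63 in IBH1-Ox in the authors' deposited table (adjusted p 1.36e-06) was an increase, and the gene rose again in PRE1-Ox/IBH1-Ox relative to IBH1-Ox. NIP6-1 had 86.7 and 91.1 normalized reads in IBH1-Ox, against 132 and 135 in WT. It fell in IBH1-Ox, with a log2 fold change of -0.59 in the authors' deposited table (adjusted p 0.0347), and the lower values of PRE1-Ox/IBH1-Ox did not pass. TIP3-2 had 31.0 and 24.6 normalized reads in IBH1-Ox, against 4.76 and 3.38 in WT, which rest on 29 and 20 reads in IBH1-Ox and 6 and 3 reads in WT. Its log2 fold change, 2.77 in the authors' deposited table (adjusted p 0.000544), was the largest of the listed aquaporins and the one with the fewest reads. Of the 7 mature seed markers, 1 was listed in this comparison, OLEO2, and it was lower in IBH1-Ox, with 89.9 and 84.9 normalized reads in IBH1-Ox, against 350 and 318 in WT. Multiplying both folds of a gene sets PRE1-Ox/IBH1-Ox beside WT, with no test, at 0.927 for PIP2-6, 0.645 for TIP2-3, 1.93 for TIP2-2, 1.92 for TIP4-1, 0.431 for NIP6-1 and 3.32 for TIP3-2.

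**Figure D4:**
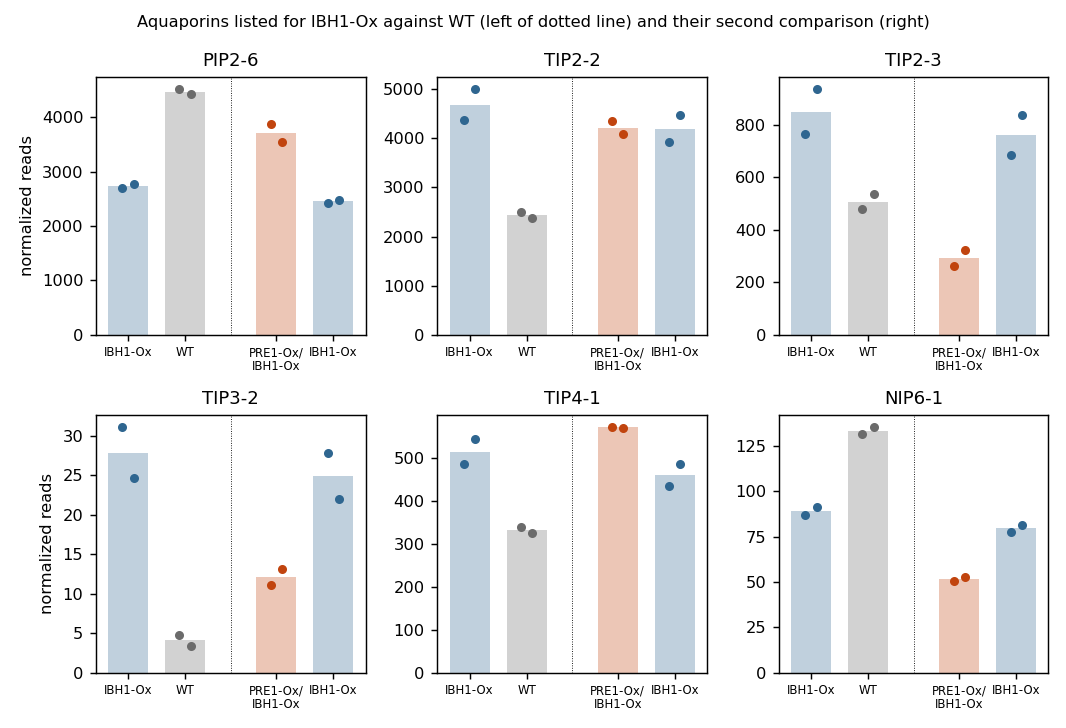
Normalized reads of the 6 aquaporins listed for IBH1-Ox against WT, with bars at the group mean and a point per library. Left of the dotted line are IBH1-Ox and WT from one table, and right of it PRE1-Ox/IBH1-Ox and IBH1-Ox from the other, which was normalized separately. PIP2-6 is low and TIP2-3 high in IBH1-Ox on both sides of the line. The IBH1-Ox points on the left and right are the same libraries, so they are not separate observations.

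Tissue markers were set beside these values, and those called went in both directions. Over all genes the authors' test called 12.7% higher and 9.78% lower, and limma-voom 20.8% and 17.4%. An unadjusted p below 0.05 held for 16.6% higher and 14.2% lower. The genes listed for IBH1-Ox against WT amounted to 3.26% higher and 3.07% lower. Of 6 root hair markers, 0 were called in either direction in PRE1-Ox/IBH1-Ox against IBH1-Ox by the authors' DESeq test, while an unadjusted p below 0.05 gave 1 higher and limma-voom 3 higher. Their sum was 4689 and 4821 normalized reads in PRE1-Ox/IBH1-Ox, against 4399 and 4065 in IBH1-Ox. In the authors' deposited table of IBH1-Ox against WT, 4 of the 6 (EXPA7, EXPA18, PRP3 and LRX1) were listed as higher, alongside the root-expressed TIP2-2, TIP2-3 and TIP4-1. Of the root inner tissue and tip markers, that table listed SMB as higher, with a log2 fold change of 1.13, and CO2 as lower, with -1.20, and of the shoot markers it listed TMM as higher, with 0.63. It listed the seed marker OLEO2 as lower, with -1.93. Of 9 markers of inner root tissues and the root tip, 2 were higher in PRE1-Ox/IBH1-Ox (SHR and CO2) and 1 was lower (PLT1), while an unadjusted p below 0.05 and limma-voom each gave 2 higher and 3 lower. Their sum was 2625 and 2547 normalized reads in PRE1-Ox/IBH1-Ox, against 2370 and 2565 in IBH1-Ox. Of 9 shoot markers, 2 were higher (RBCS1A and AS1) and 4 were lower (SPCH, MYB60, TMM and KNAT1). The 8 shoot markers other than RBCS1A, whose reads could not be recovered, summed to 2153 and 2130 normalized reads in PRE1-Ox/IBH1-Ox, against 2239 and 2473 in IBH1-Ox. RBCS1A was far more abundant, with deposited group means of 338153 in PRE1-Ox/IBH1-Ox and 271558 in IBH1-Ox, so the sum leaves out most shoot marker reads. VGD1, a pollen gene, was the single marker at 0. The part of tissue proportions in the aquaporin values was not tested.

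Proton pumps power the solute uptake that water follows through aquaporins, and those listed here moved mostly upward in PRE1-Ox/IBH1-Ox. They were chosen with earlier results of these data known, and other pump genes were not examined. The 3 listed plasma membrane proton pump genes rose, with log2 fold changes of 0.34 for AHA1, 0.42 for AHA2 and 0.56 for AHA3 in the authors' deposited table. AHA2, the main pump of roots, had 27482 and 26429 normalized reads in PRE1-Ox/IBH1-Ox, against 19551 and 20666 in IBH1-Ox. Of 10 endomembrane proton pump genes, 8 rose and 0 fell by the authors' DESeq test, which called 12.7% of all tested genes higher and 9.78% lower. Limma-voom gave 9 and 0, beside 20.8% and 17.4% of all genes in that fit. The median log2 fold change of the 10 pump genes was 0.28. VHA-a3, a subunit of the vacuolar pump, had 6223 and 6079 normalized reads in PRE1-Ox/IBH1-Ox, against 4247 and 4468 in IBH1-Ox. Its log2 fold change was 0.50 in the authors' deposited table, as was that of the pump subunit VHA-E1, and that of the vacuolar pyrophosphatase AVP1 was 0.37. VHA-a1, of the trans-Golgi network, and VHA-a2 were not called, at -0.04 and 0.16 in the authors' deposited table.

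Genes of ion and malate transport moved in both directions. Of 11, 1 rose and 4 fell by the authors' DESeq test, beside 12.7% and 9.78% of all tested genes. An unadjusted p below 0.05 and limma-voom each gave 3 higher and 4 lower. The shares of all genes were 16.6% and 14.2% for the former, and 20.8% and 17.4% for limma-voom. The median log2 fold change of the 11 was 0.06. NHX1, a vacuolar cation/proton antiporter, rose, with a log2 fold change of 0.40 in the authors' deposited table. The calcium/proton antiporters CAX3 and CAX1 had log2 fold changes of -0.99 and -0.31, and the potassium channels KAT1 and AKT1 had -0.55 and -0.44, in the authors' deposited table. CAX3 had 219 and 182 normalized reads in PRE1-Ox/IBH1-Ox, against 400 and 395 in IBH1-Ox, so its groups were clear of each other. Of 5 genes for aquaporin phosphorylation and trafficking, 0 rose and 1 fell, with the same counts at an unadjusted p below 0.05 and with limma-voom. The one that fell was OST1, a kinase of abscisic acid signalling that phosphorylates PIP2-1, with 363 and 323 normalized reads in PRE1-Ox/IBH1-Ox, against 480 and 452 in IBH1-Ox.

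**Figure D5:**
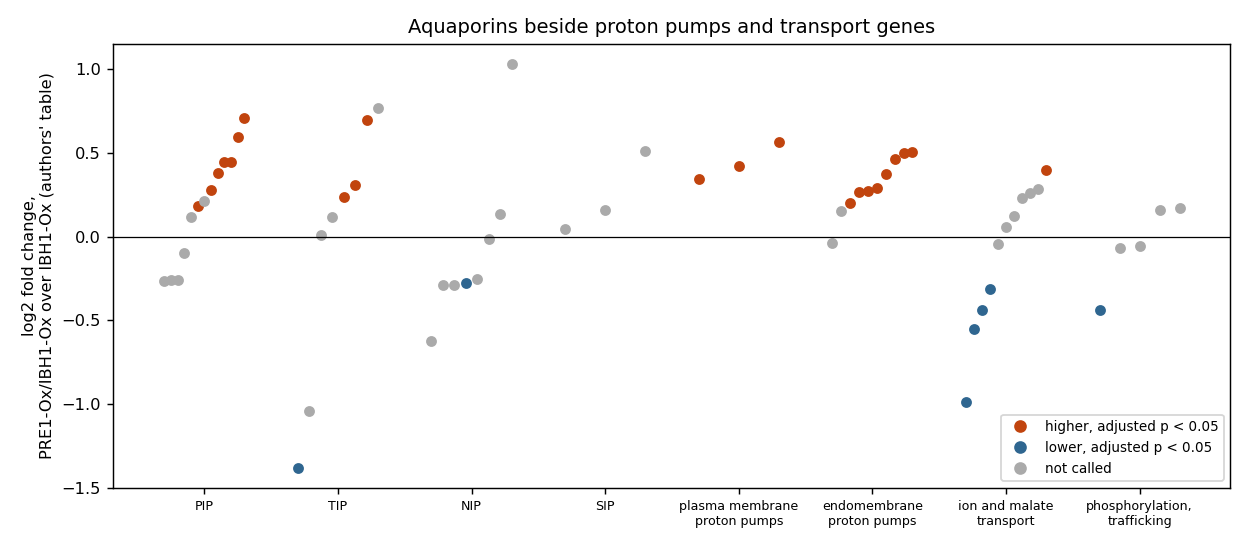
Log2 fold change of PRE1-Ox/IBH1-Ox over IBH1-Ox in the authors' table, 1 point per gene, sorted within each group of genes. Orange points were called higher, blue points lower and grey points neither. The 3 listed plasma membrane pumps and 8 of the 10 listed endomembrane pumps are orange, as are 7 of the 13 PIP genes.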

How the data were processed

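Whole-seedling RNA was extracted with the Spectrum Plant Total RNA kit and made into TruSeq libraries, per the labels. TopHat, DESeq and the TAIR10 build are named in the submitters' processing notes, with no versions. Per the file headers, the authors deposited for each comparison the base means of both groups, a signal that averages size-factor-scaled counts, with their ratio as a fold, the log2 of that fold, and a p-value and adjusted p-value. The table of IBH1-Ox against WT holds 1547 called genes, and the other holds 33518 genes, 24451 of them with a p-value, plus 5 summary entries left out of every count. Reads with several alignments made up 10.3% of the summed signal in PRE1-Ox/IBH1-Ox and 12.8% in IBH1-Ox.

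The authors' test at an adjusted p below 0.05 was used for calls, since the deposited values are not counts of single libraries. Each group mean is a weighted sum of whole reads, 1 weight per library, and was split into a pair of whole numbers that gives it. The match had to lie within the rounding of the deposited digits plus a relative tolerance of 1e-10. Pairs whose libraries differed far beyond counting error were discarded, and a mean was split where a single pair was left. The spread between libraries given here rests on that filter. This worked for 100% of the means in the first table, and for 99.99% in PRE1-Ox/IBH1-Ox and 99.88% in IBH1-Ox in the second. The IBH1-Ox reads found from one table matched those from the other for 1547 of 1547 genes, and every aquaporin was split. Between the libraries of a group the log2 ratio had an SD of 0.182 in PRE1-Ox/IBH1-Ox and 0.168 in IBH1-Ox over 16128 genes. The recovered reads were fitted with limma-voom (limma 3.58.1, R 4.3.3) with the authors' size factors and a minimum mean of 10, which 29 of the 35 members passed. This fit supplied the SE and the alternatives. It was also run on simulated counts, with changes of 1.5-fold or more and a single dispersion, which does not cover the smaller changes given here.

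Sequences, exon lengths and coordinates were read from RefSeq TAIR10.1, matched by locus tag. The members, lists and named genes were chosen with earlier results of these data known. Named in full are members called in either table and, in each subfamily, the member with the highest level per kb. Partner genes and markers are named where they were called with the largest changes or were at 0.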

Additional observations from a re-analysis of the deposited data

How the results depend on the processing

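The count of 10 higher aquaporins, beside 12.7% of all genes, was 9 at an adjusted p below 0.01 and 3 with a fold limit of 1.5. It was 14 with limma-voom (20.8% of all genes), 12 with library totals as library sizes (17.8%) and 14 without a filter on low counts (17.4%). The count of 2 lower, beside 9.78% of all genes, was 1, 1, 6, 8 and 6 under the same settings. The limma-voom settings called 17.4%, 21.1% and 14.4% of all genes lower, in that order. The shares of all genes at an adjusted p below 0.01 and with the fold limit are not given here. Of the calls, 83.3% were higher among aquaporins and 56.5% among all genes in the authors' test, 70.0% and 54.5% with limma-voom, and 60.0% and 45.7% with library totals. For IBH1-Ox against WT, a fold limit of 2 left 1 higher and 0 lower aquaporins, and an adjusted p below 0.01 left 1 lower. The shares of all genes under these limits in that comparison are not given here either. For the 12 called members, 82 of 84 values kept their direction and call under the limma-voom settings, and 2 kept the direction alone (PIP2-7 and NIP1-1). Of the members not called, PIP1-1, PIP2-2, PIP2-4, TIP1-2, TIP3-1, NIP5-1, NIP6-1 and SIP1-2 passed with limma-voom. That fit called 20.8% of all genes higher and 17.4% lower. With library totals (17.8% and 21.1%), TIP3-2 and NIP1-2 passed too, while PIP2-2 and TIP1-2 did not. No uncalled member changed direction past the threshold. The share of all uncalled genes that passed in these fits was not computed, so whether the members passed more often than other genes was not tested. With library totals the PIP1 ratio was 1.19, beside 1.22. With limma-voom the ion and malate genes had 3 higher, root hair markers 3 higher, inner root markers 3 lower, and seed markers 2 higher and 2 lower. Shoot markers had 1 higher with limma-voom, AS1, because RBCS1A, whose reads were not recovered, could not be fitted. At an adjusted p below 0.01, inner root markers had 1 higher and 0 lower, and shoot markers 1 higher. The causes of the other differences were not tested.

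No paired analysis was possible because the deposited columns hold group means and the recovered libraries carry no replicate numbers. Leaving out libraries was not run for IBH1-Ox against WT, whose table holds only called genes. For members with a mean under 10 normalized reads (NIP2-1, NIP4-2, NIP7-1 and TIP1-3), 0 were called by the authors' test, and few reads stand behind each value.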
